A study of Mus musculus with 40 samples.

Results

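The genes examined were 7 subunits of the GABA-A receptor, taken by symbol from a table of read counts with 24060 gene rows in 40 mouse striatal libraries. They are the alpha subunits Gabra2, Gabra3, Gabra4 and Gabra5, the beta subunits Gabrb1 and Gabrb2, and the gamma subunit Gabrg1. All 7 were found, and all 7 passed the low-count filter in every comparison. The table holds 12 further GABA-A subunit genes, which serve here as a comparison list.

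The libraries form 10 groups of 4. RiboTag libraries hold the RNA that came down with a tagged ribosomal protein, RPL22-HA, expressed from a virus injected into the dorsal striatum of adult mice. Each immunoprecipitate (IP) has an input library, the RNA of the whole lysate before the pull-down. The control cohort (C57/BL6NTac mice) carried, by the methods of the study, the astrocyte promoter GfaABC1D, which the labels do not name. The hSYN1 cohort (C57/BL6NTac, labelled WT) carried the neuronal promoter hSYN1. In the SAPAP3 cohort, WT mice (C57/BL6J) and mice of a targeted Dlgap3 knockout line (KO, C57/BL6J-Dlgap3 KO) were injected when older, and the labels do not name the promoter. Dlgap3 encodes SAPAP3, a scaffold protein of the postsynaptic density. The remaining groups were bulk striatal RNA of WT and KO mice, both labelled C57/BL6NTac, with no injection named. A RiboTag IP holds the ribosome-bound RNA of all cells that express the tag, so promoter activity outside the intended cell type enters it.

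GABA-A receptors are chloride channels opened by GABA, the main inhibitory transmitter of the brain. Each channel is a ring of subunits, usually alpha, beta and gamma, or alpha, beta and delta outside synapses. The alpha subunit shapes where the receptor sits and how it answers to benzodiazepines, the beta subunit lines part of the GABA binding site, and the gamma subunit helps to anchor it at synapses. Most striatal neurons are themselves GABAergic projection neurons. Astrocytes also express GABA-A receptors, and they clear GABA through the transporter GAT-3.

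Total counts per library ranged from 23438112 to 84109800, and the lowest count of any of the 7 genes in any library was 500. Dlgap3 was 166 to 200 CPM (counts divided by the library total and scaled to 1000000) in KO inputs and 376 to 514 CPM in WT inputs, and 144 to 161 CPM in bulk KO and 232 to 385 CPM in bulk WT, with no overlap in either. It passed the test in inputs (log2 -1.19, adjusted p = 0.00698) and IPs (-1.40, adjusted p = 0.0283) but not in bulk RNA (-1.14, adjusted p = 0.318). Leaving out 1 library ended the call in 3 of 8 input fits and 7 of 8 IP fits, and in bulk RNA it passed without WT replicate 4 (-1.28, adjusted p = 0.00105). All 10 astrocyte markers rose in the control cohort IP, with summed levels of 32379 to 34762 CPM against 3733 to 3894 CPM in its inputs. All 10 also rose in the IPs of both SAPAP3 genotypes. In the control cohort IP 9 of 10 interneuron markers also rose and 1 fell, with summed levels of 297 to 321 CPM in inputs and 1187 to 1320 CPM in IPs. There 6 of 10 cortical excitatory markers rose and 0 fell (138 to 177 CPM in inputs, 315 to 531 CPM in IPs), and of 6 ependymal and choroid plexus markers tested 5 rose and 1 fell (33.0 to 42.5 CPM in inputs, 78.9 to 136 CPM in IPs). No marker of these 3 lists was at 0 throughout a group of that cohort. In the hSYN1 cohort IP, all 10 markers of striatal projection neurons and 9 of 10 interneuron markers rose. Of the projection neuron markers, Rbfox3, Snap25 and Syt1 are found in all neurons.

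Several libraries stood apart. The 10 markers of cortical excitatory neurons, which should be scarce in dissected striatum, summed to 138 to 177 CPM in the control cohort inputs and to 937 to 1297 CPM in the hSYN1 cohort inputs. In the SAPAP3 cohort WT inputs they summed to 175 CPM in replicate 1 and to 833 to 1022 CPM in the other libraries. In bulk WT they summed to 379 and 319 CPM in replicates 2 and 3, against 1281 and 1148 CPM in replicates 1 and 4. Bulk WT replicate 1 carries the same animal number as a bulk KO library, and it departed from the other bulk libraries in Gabra2, as given further on.

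Of the 7 genes, 4 lie in 1 cluster on mouse chromosome 5 (GRCm38.p6, the same coordinates as mm10). Gabrg1 spans 70751047 to 70842617 and Gabra2 spans 70958392 to 71095849, both on the minus strand. Gabra4 (71569734 to 71658308, minus strand) and Gabrb1 (71657921 to 72149572, plus strand) start head to head and overlap by 388 bases. Gabra3 lies on chromosome X (72432676 to 72656919, minus strand), Gabrb2 on chromosome 11 (42419515 to 42632591, plus strand) and Gabra5 on chromosome 7 (57407669 to 57591016, minus strand). Whether counting used strand is not given in the sources used here, so how reads in the overlap of Gabra4 and Gabrb1 were counted is not known.

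The cluster holds genes that moved in opposite directions between input and astrocyte IP, Gabrg1 and Gabrb1 against Gabra2 and Gabra4, and their sequences upstream of a RefSeq start are therefore shown. CpG pairs (the letters CG, which read the same on both strands) are in capitals. The windows are chr5:70842618-70842867 for Gabrg1, chr5:71095850-71096099 for Gabra2 and chr5:71658364-71658558 for Gabra4, all on the minus strand. For Gabrb1 the window is chr5:71699682-71699931 on the plus strand, upstream of the RefSeq start whose first exon is coding, since its other start lies within the first exon of Gabra4. For Gabra4 the 55 bases next to the start, which are an exon of Gabrb1, are left out.
Gabrg1: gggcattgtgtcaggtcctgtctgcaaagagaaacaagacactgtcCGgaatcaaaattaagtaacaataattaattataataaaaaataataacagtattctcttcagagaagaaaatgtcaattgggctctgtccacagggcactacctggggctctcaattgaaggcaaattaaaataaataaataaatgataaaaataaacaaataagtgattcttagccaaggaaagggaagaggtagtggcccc
Gabrb1: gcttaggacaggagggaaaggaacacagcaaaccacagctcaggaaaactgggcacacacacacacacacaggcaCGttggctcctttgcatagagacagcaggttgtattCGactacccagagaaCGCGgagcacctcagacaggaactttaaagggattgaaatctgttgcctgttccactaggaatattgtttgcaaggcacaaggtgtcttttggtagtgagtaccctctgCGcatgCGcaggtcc
Gabra2: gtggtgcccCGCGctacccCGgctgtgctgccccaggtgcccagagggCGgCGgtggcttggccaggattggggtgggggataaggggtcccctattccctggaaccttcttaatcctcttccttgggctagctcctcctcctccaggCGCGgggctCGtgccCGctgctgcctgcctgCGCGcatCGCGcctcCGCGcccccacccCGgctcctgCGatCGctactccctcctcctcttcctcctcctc
Gabra4: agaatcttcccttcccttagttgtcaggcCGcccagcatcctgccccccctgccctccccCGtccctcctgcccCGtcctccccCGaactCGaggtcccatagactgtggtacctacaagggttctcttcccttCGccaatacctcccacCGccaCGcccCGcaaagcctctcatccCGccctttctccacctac
The 250 bases upstream of Gabrg1 held 1 CpG and 35.6% G or C, and 92.1% of the 32851 mouse promoter windows of that length held at least as many CpGs. The Gabrb1 window held 6 CpGs and 50.8% G or C, close to the median window (6 CpGs, 52.4%). The 250 bases before the other Gabrb1 start, 197 of them in annotated exons, held 18 CpGs and 64.4% G or C. That CpG count equals that of Gabra2, so the 2 starts of Gabrb1 differ in this respect. Gabra2 held 18 CpGs and 70.0% G or C, a CpG count that 21.7% of windows reached, and the full 250 bases before Gabra4 held 12 CpGs, which 33.5% reached. The letters TATAAA were found on neither strand of any of these windows, and 12.4% of all windows held them.

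The 7 genes were compared per length, as CPM divided by the merged RefSeq exon length in kilobases (FPKM), a scale that depends on the annotated length. In all 10 groups Gabrb2 and Gabra4 were the highest of the 7, with group means of 26.5 to 63.7 FPKM for Gabrb2 and 22.7 to 57.8 FPKM for Gabra4. In control cohort inputs Gabra4 was at 57.8 ± 2.43 FPKM (SD, n = 4), Gabrb2 at 40.8 ± 0.892 FPKM and Gabra2 at 19.0 ± 0.631 FPKM. Gabrb1 was the lowest there, at 2.85 ± 0.0410 FPKM. In control cohort IPs Gabrg1 ranked 4 of 7, at 11.04 ± 0.604 FPKM, and Gabra5 last, at 3.39 ± 0.946 FPKM. Among the alpha subunits examined, Gabra4 made up 48.4% to 61.7% of the summed FPKM, as group means. Gabrb1 made up 6.53% ± 0.130 of Gabrb1 and Gabrb2 FPKM in control cohort inputs and 19.2% ± 1.44 in the IPs, and the libraries of these groups did not overlap.

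**Figure D1:**
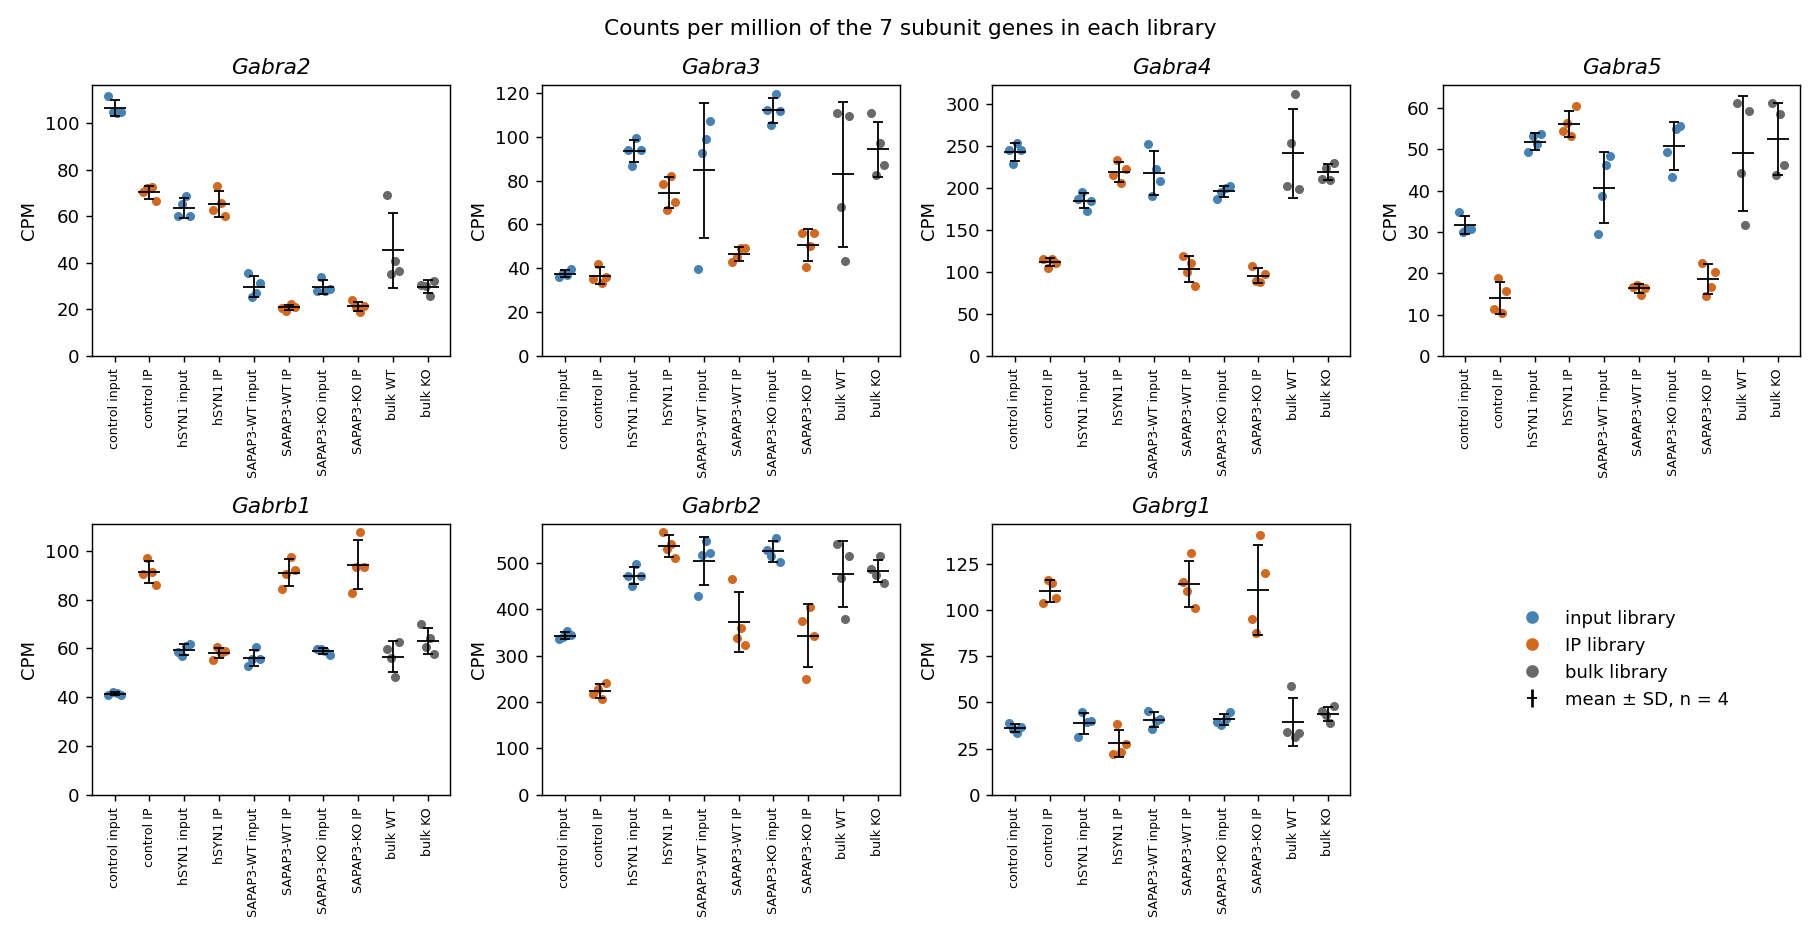
CPM (vertical axes, from 0) of each of the 7 genes in every library of the 10 groups, with points for libraries and bars for the mean ± SD (n = 4). Gabrg1 lies at 87.6 to 141 CPM in the control and SAPAP3 cohort IPs and at 22.2 to 59.1 CPM in all other libraries, and Gabra2 is highest in the control cohort inputs.

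The first comparison asks which subunit RNAs are richer on ribosomes of astrocytes than in whole striatum. Gabrg1 and Gabrb1 rose in the control cohort IP, and Gabra2, Gabra4, Gabra5 and Gabrb2 fell. Gabrg1, the gamma subunit, was at 38.7, 35.7, 33.4 and 36.9 CPM in the inputs and at 104, 116, 115 and 107 CPM in the IPs. Every IP library was above every input library, and the fold change was 3.56 (log2 1.83, 95% interval 1.72 to 1.95, adjusted p = 7.1e-11). Gabrb1 was at 40.9, 42.2, 41.8 and 41.1 CPM in the inputs and at 90.7, 97.2, 91.4 and 85.9 CPM in the IPs. These groups did not overlap either, and the fold change was 2.57 (log2 1.36, interval 1.27 to 1.45, adjusted p = 1.4e-10). Unless another tool or an unadjusted p is named, p-values are from edgeR's quasi-likelihood test, adjusted over all genes tested, and fold changes are on its TMM scale, which sets libraries level by a trimmed mean over genes. Interneuron, cortical excitatory, and ependymal and choroid plexus markers moved with these rises, as given above, and their part in the result was not tested.

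Gabra4, which pairs with the delta subunit in receptors outside synapses, was at 245, 229, 253 and 245 CPM in the control cohort inputs. In the IPs it was at 115, 105, 115 and 110 CPM, below every input, with a log2 fold change of -0.90 (interval -0.997 to -0.805, adjusted p = 4.8e-09). Gabra5, an alpha subunit of mostly extrasynaptic receptors, was at 34.8, 30.1, 30.8 and 30.8 CPM in the inputs and at 11.4, 18.8, 10.3 and 15.8 CPM in the IPs, again without overlap. Its log2 fold change was -0.95 (interval -1.30 to -0.60, adjusted p = 1.8e-04). Gabra2, an alpha subunit found at many inhibitory synapses, fell from 104 to 112 CPM in the inputs to 66.4 to 72.6 CPM in the IPs (log2 -0.38, adjusted p = 5.2e-06). Gabrb2 fell from 336 to 354 CPM to 207 to 241 CPM (log2 -0.40, adjusted p = 8.4e-06). Gabra3 was the member nearest to no change: its inputs (35.8 to 39.6 CPM) and IPs (33.5 to 42.0 CPM) overlapped, and a log2 fold change of 0.19 (adjusted p = 0.0219) became -0.03 (adjusted p = 0.641) when counts were scaled by library totals. It also missed the threshold without input replicate 1 (0.17, adjusted p = 0.0566) and under the FPKM filter, which kept genes above 5 FPKM in at least 4 libraries (0.13, adjusted p = 0.084).

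Counted together, 3 of the 7 members passed the test upward in the control cohort IP and 4 downward, while 39.2% of all 15476 genes tested passed upward and 41.2% downward. With a log2 fold change beyond 1 as well, 2 members were called higher (Gabrg1 and Gabrb1) and 0 lower, beside 13.4% and 13.5% of all genes. TMM scaling placed all IP values of this cohort 0.22 higher on the log2 scale than scaling by library totals, under which Gabra4 and Gabra5 were called lower as well. The median log2 fold change was -0.38 over the members and -0.02 over all genes tested.

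**Figure D2:**
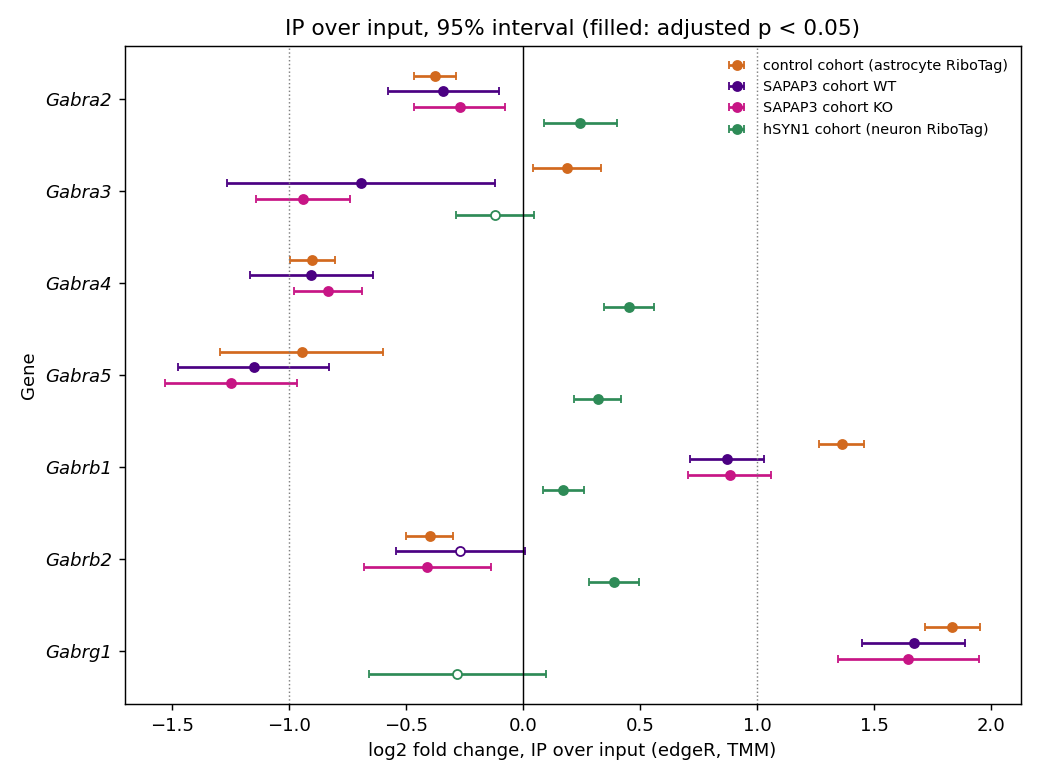
Log2 fold change of IP over input (horizontal axis) with its 95% interval for each gene in the 4 IP comparisons, n = 4 against 4, with filled points where the adjusted p was below 0.05 and dotted lines at a log2 fold change of 1 in each direction. Gabrg1 lies between 1.65 and 1.83 in the control and SAPAP3 cohorts and at -0.28 in the hSYN1 cohort.

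The same comparison was made in the SAPAP3 cohort, separately for WT and KO mice, and Gabrg1 and Gabrb1 rose in both. Gabrg1 was at 45.4, 35.6, 40.2 and 41.1 CPM in WT inputs and at 115, 110, 131 and 101 CPM in WT IPs (log2 1.67, adjusted p = 8.6e-07). In KO mice it was at 39.6, 37.8, 41.2 and 44.8 CPM in inputs and at 95.3, 87.6, 141 and 120 CPM in IPs (log2 1.65, adjusted p = 1.5e-06). IP and input libraries of Gabrg1 did not overlap in either genotype. Gabrb1 rose from 52.9 to 60.8 CPM to 84.3 to 97.5 CPM in WT (log2 0.87, adjusted p = 5.6e-06). In KO mice it rose from 57.4 to 60.0 CPM to 82.9 to 108 CPM (log2 0.88, adjusted p = 2.9e-06). As in the control cohort, the summed interneuron markers were higher in these IPs (731 to 883 CPM in WT, 734 to 790 CPM in KO) than in their inputs (311 to 343 and 337 to 373 CPM). Of 10 oligodendrocyte markers 8 rose and 0 fell in each genotype. Of 7 ependymal and choroid plexus markers tested 5 rose in each, and 1 fell in WT and 2 in KO. Of 10 oligodendrocyte precursor markers 5 rose and 1 fell in WT, and 7 rose and 1 fell in KO. Their sums were 519 to 551 CPM in WT inputs and 553 to 722 CPM in WT IPs. In KO they were 519 to 562 CPM in inputs and 647 to 777 CPM in IPs. The part of these cell types in the result was not tested.

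Gabra5 was the member that fell most in both genotypes, from 29.5 to 48.5 CPM to 14.9 to 17.2 CPM in WT (log2 -1.15, adjusted p = 8.3e-05) and from 43.2 to 55.7 CPM to 14.6 to 22.5 CPM in KO (log2 -1.25, adjusted p = 6.9e-06). Of 10 cortical excitatory markers 5 fell and 1 rose in WT (34.6% of all genes fell), and 9 fell and 1 rose in KO (35.9%). Their sums were 175 to 1022 CPM in WT inputs and 220 to 462 CPM in WT IPs, and 979 to 1092 CPM in KO inputs and 372 to 575 CPM in KO IPs. Of 10 striatal projection neuron markers 8 fell in WT and 10 in KO, and 0 rose in either. In the control cohort IP, where Gabra5 fell too, 8 of these fell and 1 rose, while cortical excitatory markers rose or did not pass. The part of these cell types in the falls of Gabra5 and Gabra3 was not tested. Gabra4 fell by 0.91 on the log2 scale in WT and by 0.83 in KO, and Gabra2 by 0.34 and 0.27. Without KO input replicate 2 the Gabra2 value in KO was -0.20 and just missed the threshold (adjusted p = 0.0507). Gabra3 fell in KO mice from 105 to 119 CPM to 40.8 to 56.1 CPM (log2 -0.94, adjusted p = 4.6e-06). The difference from the control cohort was not tested. In WT mice its inputs were at 39.6, 92.6, 99.1 and 107 CPM and its IPs at 42.9, 45.0, 49.4 and 49.2 CPM. The lowest input was replicate 1, the library low in cortical markers, and it lay below every IP. The WT log2 fold change of Gabra3 was -0.69 (adjusted p = 0.0352), and -0.92 (adjusted p = 1.32e-05) without that input. It missed the threshold when any 1 of the other 3 inputs or any 1 IP library was left out (adjusted p up to 0.100), and with limma-voom (-0.60, adjusted p = 0.0805) or no filter (-0.63, adjusted p = 0.0519). Gabrb2 fell in KO (log2 -0.41, adjusted p = 0.011), and in WT its value of -0.27 did not pass (adjusted p = 0.0768), although it passed without the input (-0.34, adjusted p = 0.0281) or the IP (-0.40, adjusted p = 0.00939) of replicate 1, with library totals (-0.44) and with the FPKM filter (-0.33).

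In WT mice 2 members passed upward and 4 downward, beside 32.7% and 34.6% of 15587 genes. In KO mice 2 passed upward and 5 downward, beside 36.1% and 35.9% of 15583 genes. With the fold limit, Gabrg1 was called higher and Gabra5 lower in each genotype. The share of all genes called was 10.9% higher and 12.1% lower in WT, and 12.3% higher and 11.5% lower in KO. Gabrb1 stayed below the fold limit in both.

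In the hSYN1 cohort the IP changed each member by less than 2-fold. Gabra4 was at 186, 195, 173 and 184 CPM in the inputs and at 216, 233, 205 and 223 CPM in the IPs, without overlap (log2 0.45, adjusted p = 1.4e-05). Gabrb2 was at 451 to 498 CPM in the inputs and at 510 to 567 CPM in the IPs (log2 0.39, adjusted p = 4.9e-05), also without overlap. Gabra5 (49.4 to 53.7 CPM against 53.3 to 60.6 CPM) and Gabra2 (60.0 to 68.8 CPM against 60.0 to 72.9 CPM) overlapped in CPM. They passed the test with log2 fold changes of 0.32 (adjusted p = 1.1e-04) and 0.24 (adjusted p = 0.0102). Gabrb1 passed with 0.17 (adjusted p = 0.00301), which became -0.03 under library totals, where Gabra2 and Gabra5 no longer passed. With the FPKM filter Gabra2 was at 0.06 (adjusted p = 0.472). TMM placed these IP values 0.20 higher on the log2 scale than library totals did.

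Gabrg1 was at 31.1, 44.8, 39.6 and 39.7 CPM in the hSYN1 cohort inputs and at 22.2, 38.4, 22.9 and 27.6 CPM in the IPs. Each IP was below the input of the same number, but the groups overlapped through replicate 2, whose input and IP were both the highest of their group. The log2 fold change was -0.28 (interval -0.66 to 0.10, adjusted p = 0.159). With the replicate number as a block it was -0.30 (adjusted p = 0.000426), and without the IP of replicate 2 it was -0.47 (adjusted p = 0.00644). Scaled by library totals it was -0.48 (adjusted p = 0.0287). Gabra3 (86.8 to 99.2 CPM against 66.8 to 82.3 CPM) had a log2 fold change of -0.12 (adjusted p = 0.174), which passed with the block (-0.12, adjusted p = 0.00708), without the IP of replicate 3 (-0.17, adjusted p = 0.0373), with the FPKM filter (-0.31) and with library totals (-0.33). In all, 5 members passed upward and 0 downward, beside 35.5% and 35.9% of 16198 genes. With the fold limit no member was called, beside 0.42% of genes called higher and 15.8% called lower.

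The difference between these IP effects was tested directly, as the hSYN1 IP over input against the control cohort IP over input. Gabrg1 differed most, by -2.12 on the log2 scale (interval -2.52 to -1.71, adjusted p = 3.2e-08), and Gabrb1 by -1.19 (interval -1.32 to -1.07, adjusted p = 1.1e-11). Gabra4 (1.35), Gabra5 (1.26), Gabrb2 (0.78) and Gabra2 (0.62) were relatively higher in the hSYN1 cohort, with adjusted p from 5.4e-12 to 5.8e-06. Gabra3 differed by -0.31 (adjusted p = 0.0173). So 4 members passed upward and 3 downward, beside 35.8% and 34.3% of 16371 genes. The cohorts also differed in virus, in cortical marker level and in Xist, the RNA of the inactive X chromosome, which was at 189 to 281 CPM in hSYN1 inputs and at 0 to 0.0405 CPM in control cohort inputs. These differences and the cell type cannot be told apart.

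Gabra2 had the widest range of the 7 genes over the 10 group means. Its highest mean (control cohort input) was 5.11 times its lowest (SAPAP3 cohort WT IP), a ratio that spans input and IP as well as cohort. The inputs of the control cohort (112, 105, 104 and 105 CPM) lay above those of the hSYN1 cohort (60.2, 65.2, 68.8 and 60.0 CPM). Both lay above the SAPAP3 cohort inputs, at 35.6, 25.2, 27.2 and 31.2 CPM in WT and 27.7, 34.0, 27.8 and 28.8 CPM in KO. The C57BL/6J substrain is known to carry a deletion in a Gabra2 intron that lowers its RNA and protein. The lowest of these inputs are those labelled C57/BL6J, but both cohorts labelled C57/BL6NTac also differed from each other without overlap. Strain, cohort and age cannot be told apart here.

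The bulk libraries did not follow their labels in the same way. They are labelled C57/BL6NTac, yet Gabra2 was at 30.5, 30.1, 25.8 and 32.4 CPM in bulk KO and at 69.3, 35.4, 40.7 and 36.3 CPM in bulk WT. Only bulk WT replicate 1 lay close to the hSYN1 cohort inputs. Nnt, which is truncated in C57BL/6J, and Wdfy1 were chosen as a check after their values were seen. Nnt was at 55.3 to 60.9 CPM in the control and hSYN1 inputs and at 27.8 to 34.9 CPM in the SAPAP3 cohort inputs. It was at 51.8 CPM in bulk WT replicate 1 and at 29.7 to 33.5 CPM in the other bulk libraries. Wdfy1 was at 63.3 to 73.8 CPM and 22.5 to 32.6 CPM in the same sets of inputs, at 73.0 CPM in bulk WT replicate 1 and at 25.4 to 31.1 CPM in the rest.

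**Figure D3:**
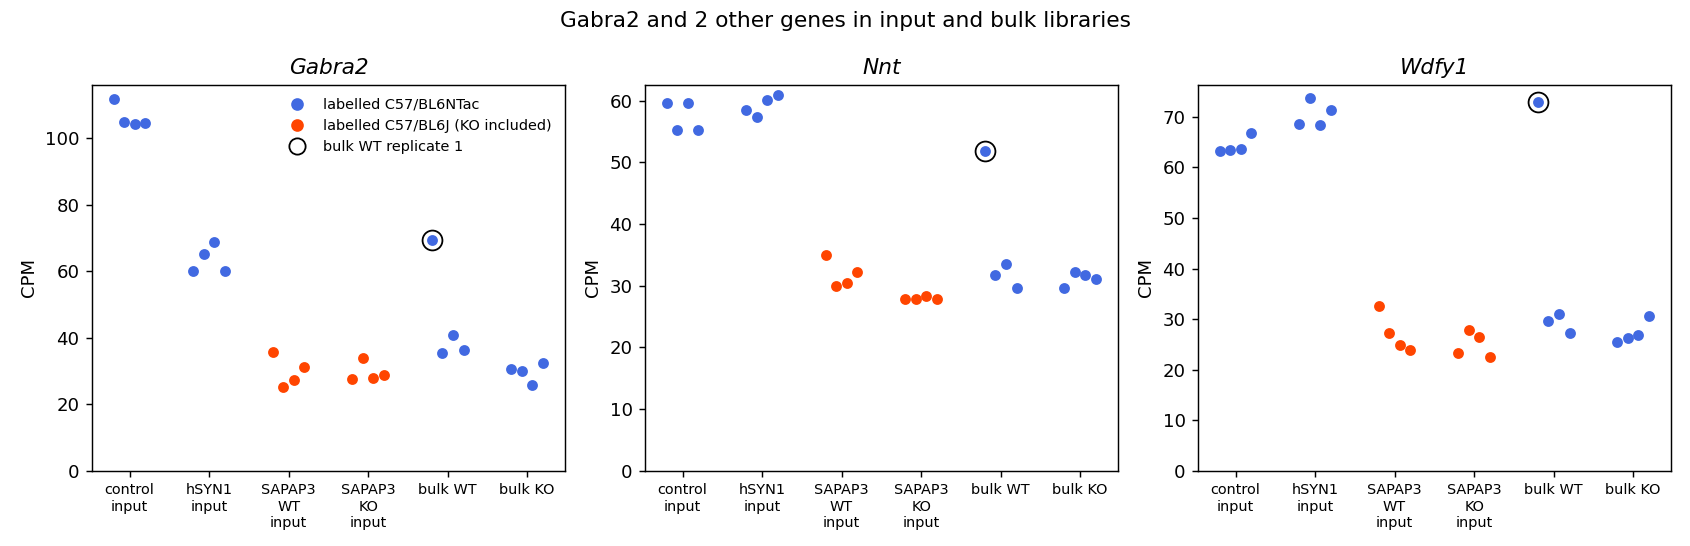
CPM (vertical axes, from 0) of Gabra2, Nnt and Wdfy1 in each input and bulk library, coloured by the strain label, with bulk WT replicate 1 circled. For all 3 genes the SAPAP3 cohort inputs and 7 of the 8 bulk libraries lie low, and bulk WT replicate 1 (69.3, 51.8 and 73.0 CPM) lies apart from the other bulk libraries.

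Within bulk WT, Gabra3 and Gabra5 were lower in the libraries low in cortical markers, and Gabra4 was higher. Over all input and bulk libraries Gabra5 and Gabra4 overlapped. Gabra5 was at 44.3 CPM in bulk WT replicate 2, low in these markers, and at 38.7 CPM in SAPAP3 cohort WT input replicate 2. Gabra4 was at 228.5 CPM in control cohort input replicate 2 and at 229.0 CPM in bulk KO replicate 4. Gabra3, an alpha subunit of forebrain neurons, was at 35.8, 37.7, 37.1 and 39.6 CPM in the control cohort inputs and at 94.0, 86.8, 99.2 and 93.9 CPM in the hSYN1 cohort inputs. In bulk WT it was at 67.9 and 43.2 CPM in replicates 2 and 3 and at 111 and 110 CPM in replicates 1 and 4. Gabra5 was at 44.3 and 31.6 CPM in bulk WT replicates 2 and 3 and at 61.2 and 59.3 CPM in replicates 1 and 4. In both genes the bulk WT libraries low in cortical markers were the lower ones. Gabra4 ran the other way, at 253 and 311 CPM in replicates 2 and 3 and at 202 and 199 CPM in replicates 1 and 4. The part of tissue content in the levels of these subunits was not tested, and in such samples fewer cells of a type and less RNA per cell cannot be told apart.

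**Figure D4:**
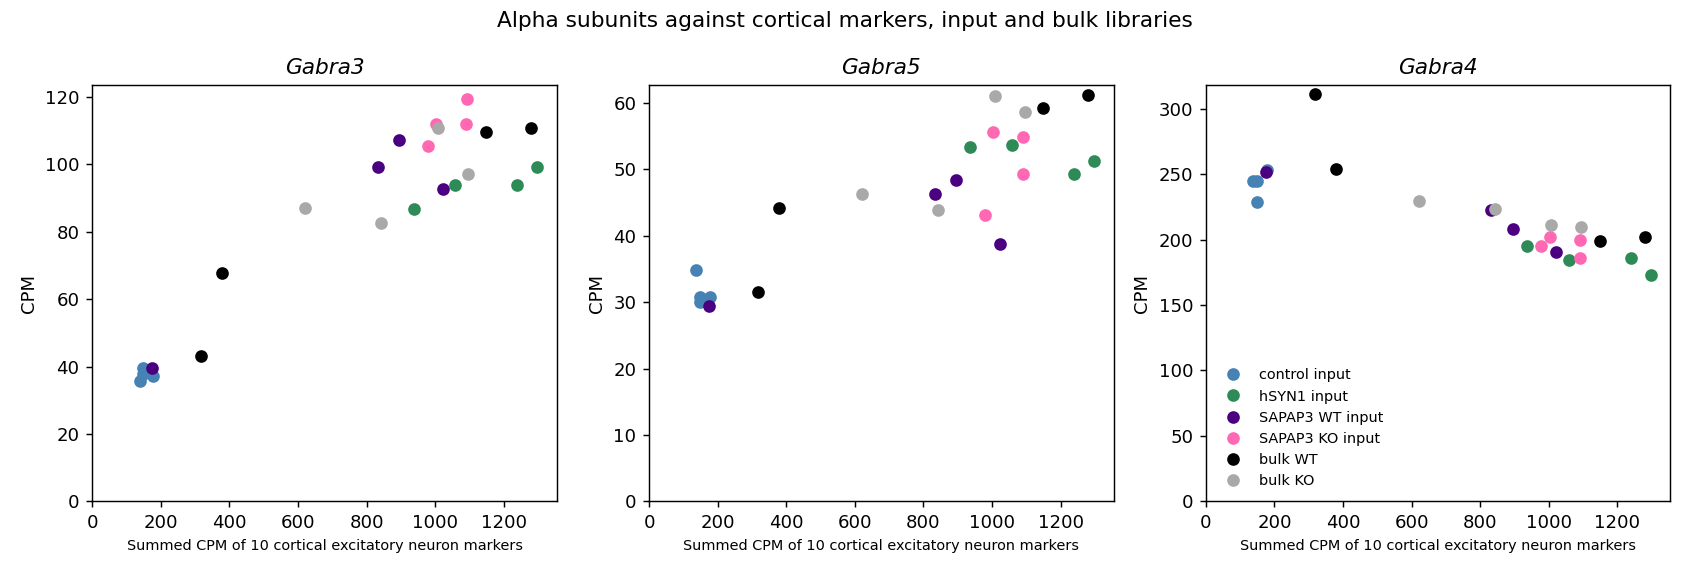
CPM of Gabra3, Gabra5 and Gabra4 (vertical axes) against the summed CPM of 10 cortical excitatory neuron markers (horizontal axes) in the 24 input and bulk libraries, coloured by group. The control cohort inputs, SAPAP3 cohort WT input replicate 1 and bulk WT replicates 2 and 3 lie at the left, low in Gabra3 (35.8 to 67.9 CPM) and high in Gabra4 (229 to 311 CPM). In Gabra4 they overlap with bulk KO replicate 4 (229 CPM).

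The last comparison asks whether loss of SAPAP3 changed the subunits, and no member passed the test in any kind of library. Of all genes, 0.00641% passed in inputs, 0.0263% in IPs and 0% in bulk RNA. In bulk RNA, 792 genes had an unadjusted p under 0.05 and DESeq2 called 17. In inputs Gabra5 was nearest to the threshold, at 29.5, 38.7, 46.3 and 48.5 CPM in WT and 49.3, 43.2, 54.9 and 55.7 CPM in KO (log2 0.34, interval -0.0024 to 0.69, adjusted p = 0.735). The input of WT replicate 1 was the lowest, the groups overlapped, and without it the value was 0.21. Gabra3 had the widest input interval, -0.14 to 0.99 around 0.43, and its value was 0.19 without the same library. For the other 5 genes the input intervals lay between -0.30 and 0.28, so larger input changes are outside them.

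In IPs the values of the 7 genes ran from -0.10 (Gabrb2 and Gabra4) to 0.20 (Gabra5), with intervals between -0.44 and 0.48 and adjusted p of 0.999. Without the IP of WT replicate 1, Gabrb2 was at 0.02. Gabrg1 was at 101 to 131 CPM in WT IPs and 87.6 to 141 CPM in KO IPs, overlapping throughout (log2 -0.03, interval -0.34 to 0.29). The test of the genotype difference in IP over input gave values from -0.29 (Gabra3) to 0.03 (Gabra4), adjusted p of 1 for each member, and 0% of 16059 genes higher and 0% lower. Without both libraries of WT replicate 1, the mouse low in cortical markers, Gabra3 was at -0.09, and Gabra2 (-0.07), Gabra5 (0.0042) and Gabrb2 (0.02) changed sign from 0.03, -0.13 and -0.18. Leaving out 1 library at a time moved Gabra3 between -0.41 and -0.05. Here 203 genes had an unadjusted p under 0.05 and DESeq2 called 1.

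In bulk RNA Gabra2 was the member furthest from no change: all 4 KO libraries (25.8 to 32.4 CPM) lay below all 4 WT libraries (35.4 to 69.3 CPM). The log2 fold change was -0.64 (interval -1.12 to -0.16, unadjusted p = 0.0139, adjusted p = 0.984). Without WT replicate 1 it was -0.35 (adjusted p = 0.692), with WT at 37.5 ± 2.86 CPM (SD, n = 3) and KO at 29.7 ± 2.79 CPM (n = 4). Gabra3, Gabra4 and Gabra5 had bulk log2 values of 0.16, -0.17 and 0.07. Without WT replicates 2 and 3, the libraries low in cortical markers, these became -0.26, 0.08 and -0.24, and none passed. Gabra2 was then at -0.88 (adjusted p = 0.169), but the WT libraries left were replicates 1 and 4. Replicate 1 is the WT library that stood apart in Gabra2, at 69.3 CPM beside 36.3 CPM in replicate 4. With Xist as a covariate, which among the bulk libraries was at 197 CPM in WT replicate 3 and at most 2.36 CPM in the others, Gabra3, Gabra4 and Gabra5 were at -0.13, 0.0037 and -0.14 and Gabrg1 at -0.02, none past the test. Gabrg1 was at 33.9, 59.1, 30.99 and 33.4 CPM in bulk WT and at 39.0 to 47.9 CPM in bulk KO (log2 0.14). WT replicate 2 was the only WT library above the KO range, and without it the value was 0.38 (adjusted p = 0.400).

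**Figure D5:**
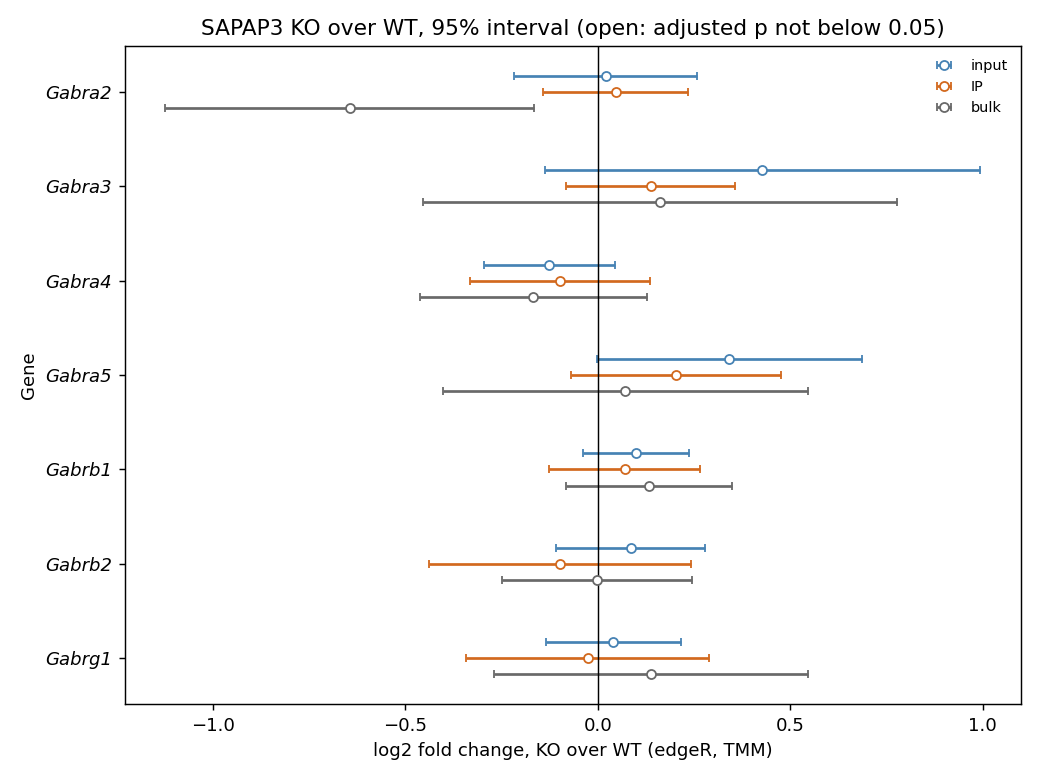
Log2 fold change of KO over WT (horizontal axis) with its 95% interval for each gene in input, IP and bulk libraries, n = 4 against 4, with open points because no adjusted p was below 0.05. The Gabra2 bulk interval (-1.12 to -0.16) is the only one that does not reach 0.

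The other genes of the pathway were read from lists of receptor, transport and chloride genes. Of the 12 other GABA-A subunits, 7 were high enough to test in the control cohort IP comparison, where 1 rose (Gabrq) and 5 fell. The delta subunit Gabrd, partner of Gabra4, fell by 1.07 on the log2 scale (adjusted p = 9.4e-09). In the hSYN1 cohort IP 5 of 8 rose, among them Gabrd (0.80), and 1 fell, Gabrr2 (-1.77), whose level was below 1 CPM.

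The counts of all 5 pathway lists stand beside 39.2% of all genes tested that rose and 41.2% that fell in the control cohort IP, and 35.5% and 35.9% in the hSYN1 cohort IP. Nothing particular to a list is read from its counts. Among 8 genes of GABA synthesis, loading, uptake and breakdown, 5 rose and 2 fell in the control cohort IP. Slc6a11, which encodes the astrocyte transporter GAT-3, rose by 2.30 on the log2 scale (79.8 to 110 CPM in inputs, 380 to 445 CPM in IPs). Aldh5a1, an enzyme of GABA breakdown, rose by 1.19. Slc6a13 (GAT-2), known from meninges and vessels, fell by 4.93 from a low level of 2.83 to 4.23 CPM. In the hSYN1 cohort IP 4 rose and 3 fell, with Slc6a11 at -1.14 and Slc6a13 at -4.47.

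Of 5 chloride genes 2 rose and 3 fell in the control cohort IP, led by the potassium-chloride cotransporter Slc12a7 (2.01). In the hSYN1 cohort IP 1 rose and 1 fell, the latter being the sodium-potassium-chloride cotransporter Slc12a2 (-1.12). Of 18 clustering and trafficking genes 9 rose and 7 fell in the control cohort IP, led by Dbi (1.63), whose product binds at the benzodiazepine site, and Rdx (1.31), the radixin that anchors receptors with the alpha-5 subunit. In the hSYN1 cohort IP 10 rose and 4 fell. Of 5 GABA-B receptor genes 2 rose and 3 fell in the control cohort IP, and 2 rose and 1 fell in the hSYN1 cohort IP. The median log2 fold changes of these 5 lists ran from -0.57 to 0.61 in the control cohort IP, beside -0.02 over all genes tested.

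The order of the group means differed between the members. For Gabrg1 and Gabrb1 the 3 highest groups were the IPs of the control and SAPAP3 cohorts, and their libraries did not overlap with the next group down. Those 3 groups overlapped with each other, at 110 to 114 CPM for Gabrg1 and 91.1 to 94.4 CPM for Gabrb1. For Gabra4 and Gabra5 the same 3 IPs were the lowest groups (95.3 to 111 CPM and 14.1 to 18.6 CPM), again without overlap with the next. For Gabrb2 only the control cohort IP (223 ± 14.7 CPM) lay clear below its neighbour, and for Gabra3 both groups of the control cohort were lowest (36.6 and 37.5 CPM). The share of all genes whose groups lay apart in this way was not computed. Nothing particular to the members is therefore read from the lack of overlap.

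The genes whose 10 group means were most like those of each member were found by Pearson's r on log2(CPM + 0.5), a description over group means that share inputs, virus and tissue content. Gabrg1 was most like Scara3, Hsdl2 and Nqo2 (r from 0.9973 to 0.9978), and Gabrb1 like Dctn4, Nudt12 and Ccpg1 (0.987 to 0.9892). Gabra4 was most like Mpped2 (0.9993), Rbp4 and AK129341. Gabra5 was most like Gda (0.9948), Slc35f4 and Ptprj, and Gabra3 like Mkx (0.9893), 6530402F18Rik and Cdh12. Gabra2 was most like Ppp2r3c (0.9846), Cd59a and Ppdpf, and Gabrb2 like Atp2b3 (0.9844), Exph5 and Slc24a2.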

How the data were processed

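RNA sequencing libraries were analysed from the read counts per gene that the authors deposited, 1 table of whole-number counts for 40 libraries. Per the labels the reads were aligned to mm10 with STAR and counted with HTSeq, with versions and strand setting not given in the sources used here. CPM were computed from library totals, and FPKM from merged exons of RefSeq GRCm38.p6, which gave a length to 99.1% of symbols. Comparisons used edgeR 4.0.16 (R 4.3.3): filterByExpr, TMM scaling, the quasi-likelihood test and Benjamini-Hochberg adjustment, each fitted on the libraries compared. The threshold was an adjusted p of 0.05, and "called" in IP comparisons also needed an absolute log2 fold change over 1. The test was also run on simulated counts of independent libraries. These held no pairing and no library that stood apart, so that check does not cover those features of the data. Alternatives were DESeq2 1.42.0, limma-voom (limma 3.58.1), RLE and total-count scaling, no filter, an FPKM filter (over 5 in at least 4 libraries), a replicate block or Xist covariate, and leaving out each library. Leaving out the libraries low in cortical markers was chosen after seeing the data.

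The 7 genes and all lists were chosen with earlier results of these data known. Named in the text are the members, Dlgap3, the called pathway genes with the largest changes (at most 4 per list), and the 3 genes most like each member among those with a mean of at least 5 CPM. Gabrq, Xist, Nnt and Wdfy1 were named after their values were seen, and some genes of the lists are not reported here. Input and IP were paired by animal number in the labels, and in the hSYN1 cohort by title number, where the animal identifiers differ. In all 16 pairs the deviations from the group means correlated (r from 0.258 to 0.791), each best with its own number. Upstream sequences came from RefSeq (GRCm38.p6), in which all 7 symbols matched. Total counts per library set the depth, and p-values measure the spread between 4 libraries a group.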

Additional observations from a re-analysis of the deposited data

Results flagged for a closer look

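In 5 of 70 sets of 4 libraries (7 genes in 10 groups) 1 library stood apart from the other 3 by Dixon's test, where chance alone flags about 1 in 20. Gabra2 did so in control cohort input replicate 1 (112 CPM), in SAPAP3 cohort KO input replicate 2 (34.0 CPM) and in bulk WT replicate 1 (69.3 CPM). Gabra5 did so in control cohort input replicate 1 (34.8 CPM) and Gabrg1 in bulk WT replicate 2 (59.1 CPM).

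All 7 genes had an IP effect that differed between the hSYN1 and the control cohort in edgeR's test of the difference. So did 11469 of all 16371 genes tested, so passing is not particular to the members. On the log2 scale, hSYN1 minus control, the differences were 0.62 for Gabra2, -0.31 for Gabra3, 1.35 for Gabra4, 1.26 for Gabra5, -1.19 for Gabrb1, 0.78 for Gabrb2 and -2.12 for Gabrg1. The cohorts differ in virus, cortical marker level and Xist as well, and these cannot be told apart from the cell type.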

How the results depend on the processing

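Scaling by library totals gave 4 called members in place of 2 in the control cohort IP and in the SAPAP3 cohort KO IP, and turned Gabra3 in the control cohort IP (-0.035) and Gabrb1 in the hSYN1 cohort IP (-0.034), by the shift given above. In the SAPAP3 cohort WT IP, TMM placed values 0.17 higher on the log2 scale than library totals did. Gabra4 was at -0.91 there with TMM, so near the fold limit that its call can depend on the scaling. The FPKM filter tests fewer genes and left some members untested. Gabrb1 and Gabrg1 dropped out in the hSYN1 cohort IP and between genotypes in inputs and bulk RNA. Gabra2 dropped out in both SAPAP3 cohort IP comparisons, and Gabra2 and Gabra5 between genotypes in IPs. The filter gave 1705, 509, 1272 and 1424 called genes in the control, hSYN1, SAPAP3 WT and SAPAP3 KO IP comparisons. Without the fold limit 7448, 5827, 6043 and 6603 passed the test there, and 7168 passed for the difference between cohorts. Between genotypes, DESeq2 gave 8 genes in inputs, 8 in IPs, 17 in bulk RNA and 1 for the difference in IP over input. The FPKM filter gave 2 genes in IPs, and bulk RNA without WT replicates 2 and 3 gave 5. The causes of these changes between genotypes were not tested. Leaving out 1 library at a time gave 0 to 1 genes between genotypes in inputs, 0 to 3 in IPs and 0 to 1 in bulk RNA. Called members ran from 2 to 3 in the control cohort IP and stayed at 2 in each SAPAP3 cohort IP, 0 in the hSYN1 cohort IP and 0 between genotypes. All 7 members passed the difference between cohorts in every such fit, beside 11154 to 11415 of all genes.

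Blocking on the replicate number made Gabra3 and Gabrg1 pass in the hSYN1 cohort IP (-0.12 and -0.30), as given above, and changed no other call of a member. The Xist covariate and DESeq2 changed no call of a member, although the covariate turned 4 bulk values, as given above. With 4 libraries a group and few calls between genotypes, the genotype intervals given above set what these data could show for the 7 genes.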
